A study of Rattus norvegicus with 10 samples.

Results

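Cytosolic ribosomal protein genes were followed across control, GN, EV+ and EV- splenic macrophages. They were the rows of the expression table whose symbol is Rps or Rpl with a number (with an optional a, x, y or l suffix), Rplp0, Rplp1, Rplp2 or Rpsa. The rule found 81 of the 9003 genes in the table, 33 of the small and 48 of the large subunit, and used no measured value. All 81 had already passed the authors' filter on low expression, so ribosomal protein genes below that filter are not part of the 81. Among them were 5 paralogs by symbol, *Rpl22l1*, *Rpl3l*, *Rps27l*, *Rps4x* and *Rps4y2*.

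The study asked how extracellular vesicles (EVs) from injected adipose-derived mesenchymal stem cells (ASCs) change the transcriptome of splenic M2 macrophages in nephritis. The 4 groups of WKY rats (WKY /Ncrj) gave 10 libraries, all of macrophages enriched with an anti-CD11b/c antibody and then sorted by flow cytometry. Control macrophages (n = 2) came from rats in the physiological condition. GN macrophages (n = 2) came from rats with glomerulonephritis, which in this model is induced by TF78, an antibody to the glomerular basement membrane, and which had no ASCs. EV+ and EV- macrophages (n = 3 each) came from nephritic rats given human ASCs whose membranes carried the dye DiD, and were DiD-positive or DiD-negative cells. EV+ and EV- cells therefore share the nephritis and the ASC injection, and DiD marks ASC membrane rather than any one kind of vesicle. The day of spleen collection for sequencing and whether a library pooled animals are not given in the sources used here.

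A ribosome has a small subunit, which decodes the mRNA, and a large subunit, which forms peptide bonds, and each protein is normally built into the particle in a single copy (the stalk proteins are an exception). Most mRNAs of ribosomal proteins begin with a 5′ terminal oligopyrimidine (TOP) tract, through which mTOR signaling and the protein LARP1 control their translation together. Macrophages change this output when they are activated or starved, and a library of polyadenylated RNA reads the amount of these mRNAs, not their translation.

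Each library held 19270515 to 26617093 reads on genes, and values are CPM, the reads of a gene relative to the library's total, scaled by TMM, a method that aligns the bulk of genes between libraries. CPM is not divided by gene length, so levels are compared between libraries and not between genes. Of 18 macrophage markers, 16 were in the table, and they summed to 25685 to 26119 CPM in control, 30674 to 31394 in GN, 30082 to 31886 in EV+ and 29605 to 31098 in EV- libraries, most of it *Lyz2* and *Csf1r*. As means of log2(CPM + 1) over the 16 genes, GN (6.68 and 6.63) lay above control (6.49 and 6.22). EV+ (6.39, 6.34 and 6.43) and EV- (6.44, 6.24 and 6.12) overlapped control. Of the 16 genes, 5 were lower than in control in GN, 7 in EV+ and 10 in EV-. *Cd163* and *Mrc1*, markers often used for M2 cells, reached at most 1.81 and 1.81 CPM and were at 0 in some libraries. Natural killer cell markers (7 of 8 in the table) summed to 179 to 207 CPM in control, 101 to 125 in GN, 102 to 176 in EV+ and 156 to 671 in EV-, with the top value in EV- replicate 1. Outside that library most of the sum was *Klrk1*, at 157 to 192 CPM in control and 83.7 to 136 in EV-. *Prf1* was at 335, 51.4 and 24.5 CPM in EV- and at most 18.4 in the other groups. It was called higher in EV- than in control (log2 difference 2.65 ± 0.73, SE; adjusted p = 0.0980, limma). *Cd3e*, which defines T cells, reached at most 0.0421 CPM outside EV-. The T cell list (7 of 11 in the table), most of it *Cd8a*, summed to 203 to 205 CPM in control, 269 to 270.5 in GN, 257 to 333 in EV+ and 271 to 378 in EV-. The neutrophil list (7 of 9), most of it *Csf3r*, summed to 549 to 555 CPM in control, 610.0 to 689 in GN, 700.0 to 719.5 in EV+ and 656 to 744 in EV-. The sums of both lists thus separated control from the other groups, and limma called *Cd8a* (adjusted p = 0.0164 and 0.0181) and *Csf3r* (adjusted p = 0.0268 and 0.0600) higher in EV+ and EV- than in control. As means of log2(CPM + 1) over the listed genes, control and GN overlapped. The T cell means were 1.61 and 1.58 in control and 1.52 and 1.72 in GN. The neutrophil means were 2.77 and 2.48 in control and 2.76 and 2.80 in GN. Between control and GN the sums thus followed *Cd8a* and *Csf3r* rather than the lists as a whole. The T cell means of EV- (3.16, 2.06 and 1.76) all lay above control, and those of EV+ (1.65, 1.53 and 1.61) overlapped it. The neutrophil means of EV+ (2.91, 2.81 and 3.07) all lay above control, and those of EV- (3.12, 2.75 and 3.08) overlapped it. Of 10 erythroid markers, 2 were in the table, summing to 1.19 to 1.61 CPM in control, 6.44 to 7.26 in GN, 3.28 to 4.80 in EV+ and 3.72 to 6.30 in EV-. The part of these differences in the ribosomal protein values was not tested.

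The starts of the genes on which the comparisons turn are shown first, because the pyrimidine tract at the start of transcription is the feature these genes are best known to share. They are RefSeq sequences of build GRCr8, matched by symbol, whereas the reads had been aligned to rn6, and 66 of the 81 genes matched. Each line gives 30 bases in the direction of transcription, 10 before the annotated start and 20 from it on, with the longest unbroken run of C and T in capitals.
Rps7, chr6:50999426-50999455, minus strand: agagctgtgTCTCTTTCTaagccggcactc
Rpl37, chr2:55942935-55942964, plus strand: ggcgtaCTTTCTCTTCCggtctctttggcc
Rpl35, chr3:43165902-43165931, minus strand: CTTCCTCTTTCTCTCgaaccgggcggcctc
Rpl35a, chr11:81235002-81235031, minus strand: tcttgCCTTCCTCTTTCCgccatcttggcg
Rps27, chr2:177964587-177964616, minus strand: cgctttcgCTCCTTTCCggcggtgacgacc
Rpl24, chr11:58128386-58128415, minus strand: tagggaggagaTTCTCTaccctataaggtg
Rps28, chr7:15311314-15311343, minus strand: ccctgctcacgtgaCTCCTCTCCgctagat
Rps6, chr5:106420521-106420550, minus strand: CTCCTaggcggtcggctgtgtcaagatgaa
Rpl36, chr9:1533770-1533799, plus strand: cggCCgccatcggaaagctgcaggtaagtc
Rps2, chr10:14251838-14251867, plus strand: TCTTTTTCTTCgggaaaacacgtgagtctg
In *Rps7*, *Rpl37*, *Rpl35*, *Rpl35a* and *Rps27* the run covered the annotated start, and each had a C at the start followed by at least 4 pyrimidines. The run began after the start in *Rpl24* and *Rps28*, ended before it in *Rps6* and on it in *Rps2*, and *Rpl36* had no run longer than 2 bases. A C at the annotated start followed by 4 letters that are each C or T, on the transcribed strand only, was found in 24 of 67 promoter entries of the ribosomal protein genes (35.8%) and in 2.63% of all 33469 entries. Anywhere in the 30 bases the same motif was found in 74.6% and 33.6%, respectively. These are matches of letters at annotated starts, and no start site was measured here.

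Ribosomal protein mRNAs took their largest mean share of the reads in control macrophages, where replicate 2 stood highest, and their smallest share in 1 EV+ library. The 81 genes took 1.60% and 1.85% of the reads in control replicates 1 and 2, 1.54% and 1.59% in GN, 1.59%, 1.26% and 1.51% in EV+ replicates 1 to 3, and 1.55%, 1.41% and 1.53% in EV-. Small subunit genes took 0.586% and 0.697% of the reads in control, 0.562% and 0.583% in GN, 0.446% to 0.587% in EV+ and 0.517% to 0.570% in EV-. Large subunit genes took 1.01% and 1.15% in control, 0.976% and 1.01% in GN, 0.809% to 1.001% in EV+ and 0.890% to 0.982% in EV-. Both subunits thus had the same order of libraries at either end, with control replicate 2 highest and EV+ replicate 2 lowest. Control replicate 1 (1.60%) and EV+ replicate 1 (1.59%) lay side by side, and the control and EV+ shares, 1.72% ± 0.177 (SD, n = 2) and 1.45% ± 0.173 (SD, n = 3), did not overlap. For the small subunit alone they did, with EV+ replicate 1 (0.587%) just above control replicate 1 (0.586%).

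**Figure D1:**
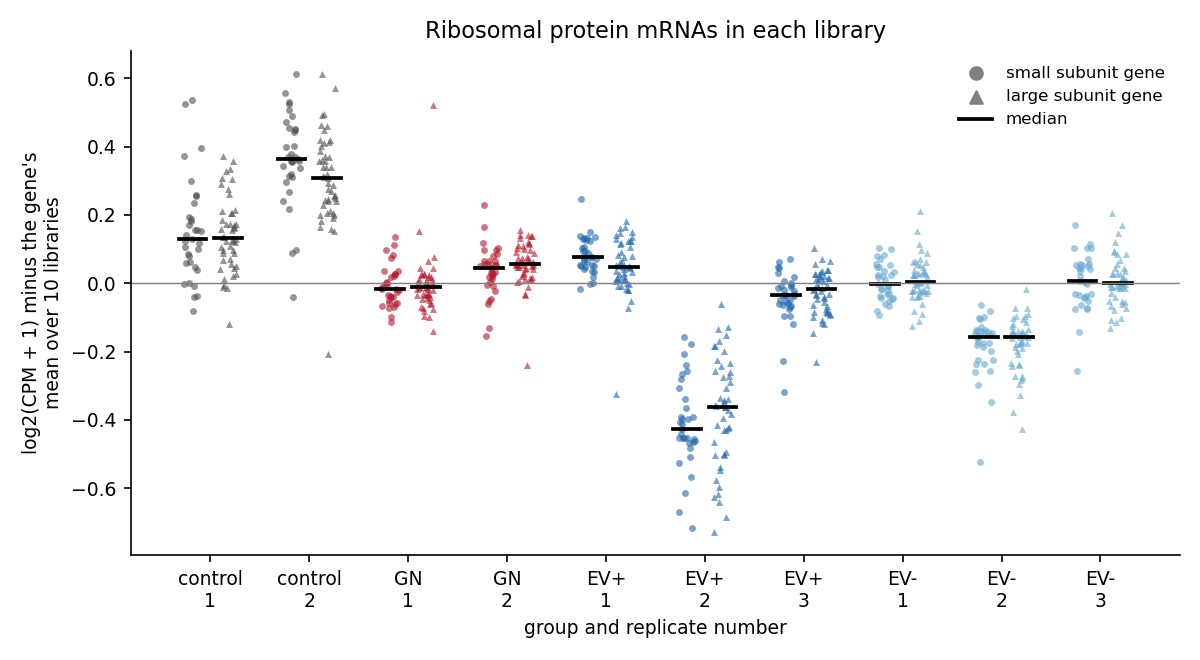
Each point is 1 ribosomal protein gene in 1 library, as its log2(CPM + 1) minus its own mean over the 10 libraries; circles are small subunit genes, triangles are large subunit genes and bars are medians. Control replicate 2 sits highest (median 0.34 over the 81 genes) and EV+ replicate 2 lowest (-0.40).

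Nearly all of the extremes fell in 2 libraries. EV+ replicate 2 had the lowest value of the 10 libraries in 74 of the 81 genes, and control replicate 2 had the highest in 75, against 15.6% and 14.1% of all genes in the table. From the highest to the lowest library the genes spanned 1.22-fold to 2.65-fold, with a median of 1.71-fold. The widest spans between these 2 libraries, on the log2(CPM + 1) scale, were those of *Rpl35a* (1.34), *Rps28* (1.33), *Rps27* (1.23), *Rpl36* (1.21) and *Rps29* (1.14). The narrowest were those of *Rpl3l* (0.08), *Rps2* (0.12), *Rpl10a* (0.26), *Rplp0* (0.29) and *Rpl3* (0.29). Differences between genes in span were not tested, and the span of *Rpl3l*, a gene of few reads, is compressed by the pseudocount of 1. *Rps29* and *Rpl10a* are named here after their values were seen.

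**Figure D2:**
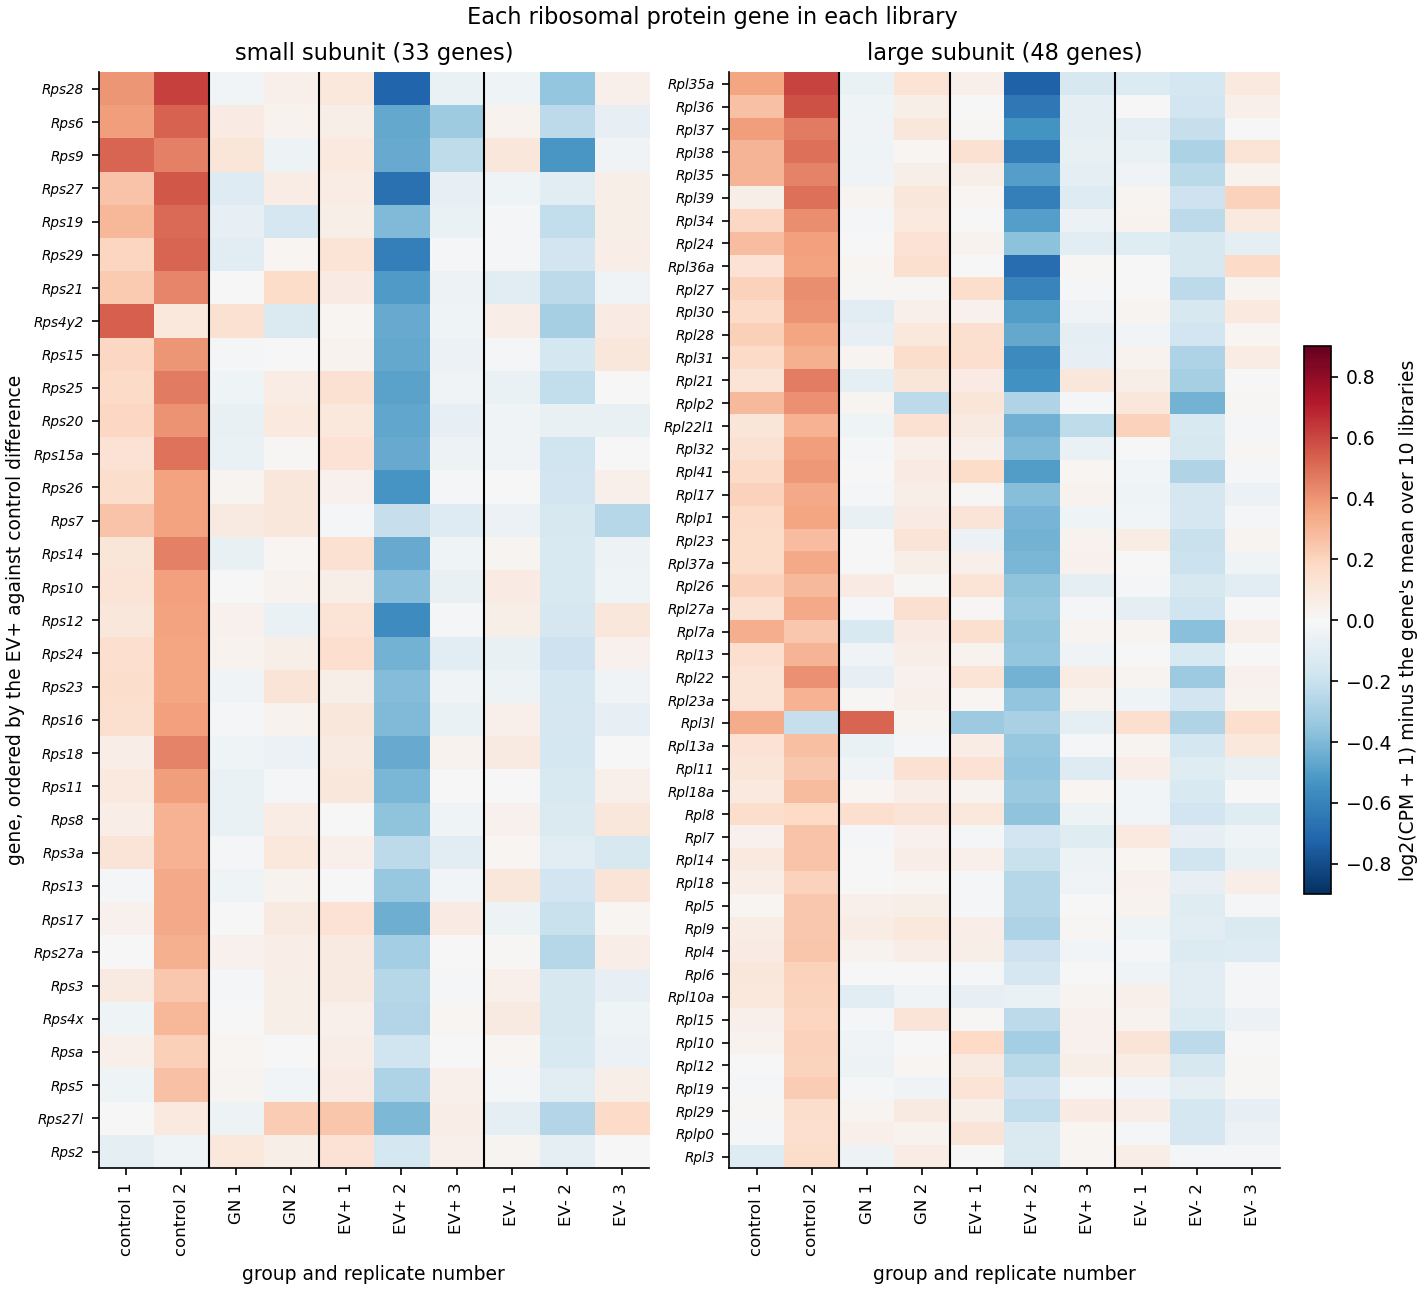
Rows are the 33 small subunit genes (left) and 48 large subunit genes (right), columns are the 10 libraries, and color is log2(CPM + 1) minus the gene's mean over the libraries. Rows are ordered by the EV+ against control difference, and the darkest columns are control replicate 2 (high) and EV+ replicate 2 (low), with *Rps2* and *Rpl3* in the last rows.

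Nephritis alone was asked by GN against control. Of the 81 genes, 78 were lower in GN, by a median of -0.21 on the log2 scale (-0.24 for the small and -0.20 for the large subunit), against a median of 0.00 over all genes. Over the 6 comparisons the median of all genes ran from -0.011 (EV+ against GN) to 0.007 (EV- against control). In 58 genes (71.6%) both GN libraries lay below both control libraries, which held for 22% of all genes. None passed limma's test at an adjusted p under 0.1, where 1.75% of all genes did. There were 8 genes at an unadjusted p under 0.05, all lower, and none called by edgeR or DESeq2. Without EV+ replicate 2, which enters only through the shared spread, limma called 3, all lower, and it also called 3 with only the control and GN libraries in the fit. The shares of all genes called under these 2 fits are not given here. Bulk RNA cannot tell apart fewer cells that make an mRNA from less of it in each cell.

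The 3 genes with the lowest adjusted p were *Rpl37*, *Rpl35* and *Rps19*. *Rpl37*, a zinc-binding protein of the large subunit, was at 203 and 216 CPM in control, 153 and 168 in GN, 158, 108 and 148 in EV+ and 147, 135 and 157 in EV-. *Rpl35*, which lies by the exit of the nascent chain tunnel, was at 295 and 326 CPM in control, 233 and 248 in GN, 247, 168 and 225 in EV+ and 234, 201 and 243 in EV-. In both, the 2 control libraries stood above all 8 others. The log2 differences of GN from control were -0.38 ± 0.14 (SE) for *Rpl37* (adjusted p = 0.331) and -0.37 ± 0.15 (SE) for *Rpl35* (adjusted p = 0.365) in limma. *Rps19*, the gene most often mutated in Diamond-Blackfan anemia, had low values of 9.09 and 10.6 CPM in control, 6.78 and 6.37 in GN, 7.50, 5.22 and 6.87 in EV+ and 7.14, 6.01 and 7.51 in EV-, a log2 difference of -0.52 ± 0.21 (SE) and an adjusted p of 0.383.

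A gene that went the other way without overlap is described here after its values were seen. *Rps2*, which lines the mRNA entry channel of the small subunit, was at 479 and 494 CPM in control, 544 and 528 in GN, 557, 455 and 524 in EV+ and 516, 479.7 and 509 in EV-. Its GN libraries were above its control libraries by 0.14 ± 0.09 (SE) on the log2 scale, which did not pass the test (adjusted p = 0.670), and its EV+ values spread over both.

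EV+ against control gave the largest median difference of the 6 comparisons and the most calls. Here 80 of 81 genes were lower in EV+, by a median of -0.37 (-0.38 small, -0.35 large), or 22.6% in CPM + 1. In 59 genes (72.8%) all 3 EV+ libraries lay below both control libraries, against 15.6% of all genes. limma called 9 genes (11.1%), all lower, where 3.63% of all genes were called and 1.81% were called lower. They were *Rps7*, *Rps28*, *Rps27* and *Rps6* of the small and *Rpl37*, *Rpl24*, *Rpl35*, *Rpl36* and *Rpl35a* of the large subunit. edgeR's test on the recovered reads also called 9, DESeq2 called 29, and a block on replicate number in limma called 16, without *Rps6*. The count was 1 without the intensity trend (*Rps6*) and 1 with only the control and EV+ libraries in the fit (*Rps7*). Shares of all genes called are not given for these other tools and settings, so their counts have no background to be set against.

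Among the 9, the largest falls were in *Rpl35a*, *Rps28*, *Rps6*, *Rpl36* and *Rps27*. *Rpl35a*, a Diamond-Blackfan anemia gene of the large subunit, was at 29.4 and 35.2 CPM in control, 21.7 and 24.8 in GN, 23.4, 13.3 and 20.4 in EV+ and 20.7, 20.2 and 24.2 in EV-. *Rps28*, at the mRNA exit of the small subunit, was at 75.8 and 88.4 CPM in control, 56.5 and 59.3 in GN, 61.4, 34.6 and 55.0 in EV+ and 55.8, 45.0 and 59.3 in EV-. EV+ replicate 2 was far below the other EV+ libraries in both, and both control libraries stood above all others. The log2 differences were -0.76 ± 0.19 (SE) (adjusted p = 0.0629, limma) and -0.73 ± 0.19 (SE) (adjusted p = 0.0674, limma).

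*Rps6*, the substrate of the S6 kinases downstream of mTOR, was at 12.5 and 14.1 CPM in control, 9.98 and 9.68 in GN, 9.81, 6.57 and 7.36 in EV+ and 9.67, 7.85 and 8.91 in EV-. With -0.70 ± 0.18 (SE) and an adjusted p of 0.0720 in limma it was called on few reads, 154 in its poorest library. *Rpl36*, of the large subunit, was at 131 and 163 CPM in control, 106 and 113 in GN, 109, 69.7 and 103 in EV+ and 109, 96.9 and 113 in EV-, a difference of -0.66 ± 0.16 (SE) (adjusted p = 0.0463, limma). *Rps27*, a zinc-finger protein of the small subunit, was at 239.7 and 295 CPM in control, 185 and 209.5 in GN, 209.9, 126 and 191 in EV+ and 195, 186 and 208 in EV-, a difference of -0.63 ± 0.17 (SE) (adjusted p = 0.0690, limma). EV- values overlapped those of GN in *Rpl36* and *Rps27*, and the control libraries did not overlap any other.

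*Rps7* had the lowest adjusted p and a smaller fall. This small subunit protein, which takes part in rRNA processing, was at 210.1 and 226 CPM in control, 186 and 188 in GN, 174, 152 and 162 in EV+ and 169.8, 159 and 147 in EV-. Its values went down from control to GN and again to both groups given ASCs, with no overlap at either step. The EV+ difference from control was -0.42 ± 0.09 (SE) (adjusted p = 0.0180, limma) and that of EV- was -0.46 ± 0.09 (SE) (adjusted p = 0.0149, limma). *Rpl24*, which bridges the 2 subunits, was at 193 and 206 CPM in control, 159 and 175 in GN, 163, 123 and 149 in EV+ and 148, 144 and 151 in EV-, with -0.47 ± 0.10 (SE) for EV+ (adjusted p = 0.0302, limma) and -0.43 ± 0.10 (SE) for EV- (adjusted p = 0.0560, limma). For *Rpl37* the differences were -0.62 ± 0.13 (SE) in EV+ (adjusted p = 0.0232, limma) and -0.52 ± 0.13 (SE) in EV- (adjusted p = 0.0716, limma), and *Rpl35* was called only in EV+, at -0.55 ± 0.13 (SE) (adjusted p = 0.0463, limma). Whether its EV+ and EV- differences differ is the EV+ against EV- test, in which its difference was -0.10 ± 0.12 (SE) (adjusted p = 0.9997, limma).

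**Figure D3:**
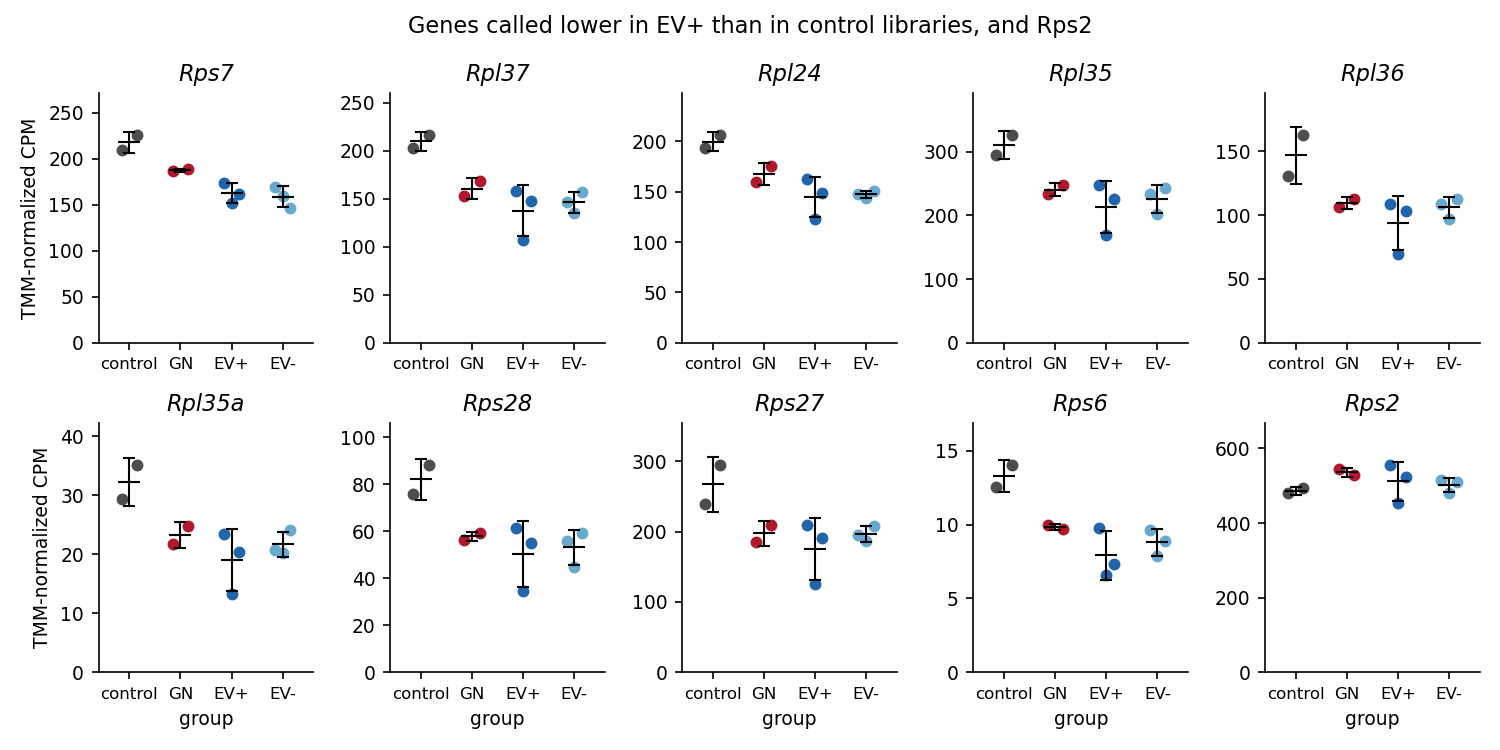
TMM-normalized CPM of the 9 genes called lower in EV+ than in control, and of *Rps2*, from 0 on each axis; points are libraries and bars are the mean ± SD of each group (n = 2, 2, 3 and 3). Both control libraries lie above all other libraries in the 9 called genes, and below both GN libraries in *Rps2*.

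The number of calls rested on single libraries. Without control replicate 2 none of the 9 genes was called, and without control replicate 1 there were 2. Leaving out EV+ replicate 1, whose values lay closest to control, gave 37 calls, and leaving out EV+ replicate 3 gave 5. Without EV+ replicate 2, the low library, 7 were called, and the median difference went from -0.37 to -0.23. No share of all genes called is given for the fits with a library left out. *Rps7* kept its call in 20 of the 22 other fits, more than any other of the 9, and *Rps6* in 13.

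EV- was set against the same control libraries, so the 2 comparisons are not independent. In EV-, 80 of 81 genes were lower, by a median of -0.29 (-0.32 small, -0.27 large), and 60 genes (74.1%) had no overlap, against 14.1% of all genes. limma called *Rps7*, *Rpl24* and *Rpl37*, 3 genes (3.70%), all lower, beside 2.84% of all genes called and 1.56% called lower. The count was 3 in edgeR, 11 in DESeq2, 5 with a block on replicate number, 0 without the intensity trend and 9 with only the control and EV- libraries in the fit. It was 0 without control replicate 2, 1 without control replicate 1, EV- replicate 1 or EV- replicate 2, 6 without EV+ replicate 1 and 29 without EV+ replicate 2, which enters this comparison only through the shared spread. For these other tools and fits the shares of all genes called are not given.

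The groups given ASCs were then set against GN, which they share. In EV+ against GN, 78 of 81 genes were lower by a median of -0.14 (-0.14 small, -0.14 large), but 9 (11.1%) had no overlap, against 11.8% of all genes. None was called by limma (0.122% of all genes were), edgeR or DESeq2, and 1 had an unadjusted p under 0.05. Without EV+ replicate 2 the median difference was -0.01. In EV- against GN, 70 of 81 were lower by a median of -0.07, 15 (18.5%) had no overlap against 12.8% of all genes, and none was called by limma (0.378% of all genes were), edgeR or DESeq2, with 1 at an unadjusted p under 0.05. Without EV- replicate 2 that median was -0.01.

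*Rps7* had the lowest adjusted p in both, with -0.21 ± 0.09 (SE) for EV+ (adjusted p = 0.674, limma) and -0.24 ± 0.09 (SE) for EV- (adjusted p = 0.479, limma), and *Rpl24* was among the first 3 in both (-0.21 and -0.18). In EV+ the third was *Rpl3l*, a paralog of *Rpl3* best known from striated muscle, at 2.62 and 1.48 CPM in control, 3.12 and 1.92 in GN, 1.29, 1.35 and 1.70 in EV+ and 2.19, 1.38 and 2.18 in EV-, with EV+ below GN but not below control. Its poorest library held 27 reads. In EV- it was *Rpl9*, of the large subunit, at 278 and 312 CPM in control, 277 and 282 in GN, 276, 218 and 267 in EV+ and 257, 247 and 241 in EV-, where the 3 EV- values lay below both GN values, a log2 difference of -0.17 ± 0.10 (SE) (adjusted p = 0.727, limma).

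Uptake of dye was asked by EV+ against EV-, DiD-positive against DiD-negative cells after the same treatment. Of 81 genes, 67 were lower in EV+ by a median of -0.05 (-0.06 small, -0.04 large). None had values without overlap, against 4.65% of all genes. None was called by limma (0.0222% of all genes were), edgeR or DESeq2, and none had an unadjusted p under 0.05. Blocking on replicate number, with only these 6 libraries in the model, also called 0.

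The 3 same-numbered pairs of libraries did not share a direction. EV+ was lower than EV- in 19 of 81 genes in pair 1 (median difference 0.06), in 76 in pair 2 (-0.22) and in 49 in pair 3 (-0.02). Without EV+ replicate 2 the median of the comparison was 0.08. The 3 genes with the lowest adjusted p were *Rpl36* (-0.20 ± 0.14 (SE)), *Rpl18* (-0.11 ± 0.08 (SE)) and *Rpl36a* (-0.23 ± 0.17 (SE)), each with an adjusted p of 0.9997 in limma. *Rpl36a* was at 27.0 and 31.9 CPM in control, 24.9 and 27.3 in GN, 24.7, 14.9 and 24.8 in EV+ and 24.5, 22.2 and 27.8 in EV-, and the EV+ values other than 14.9 lay among those of EV-.

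**Figure D4:**
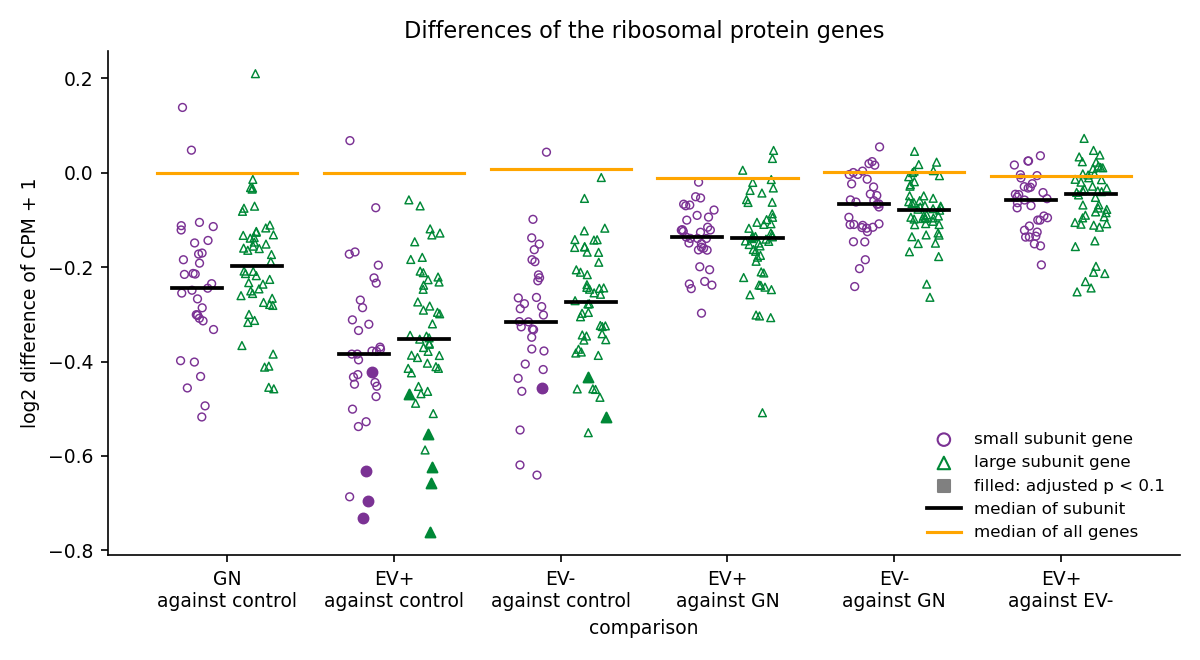
Each point is the log2 difference of 1 ribosomal protein gene in 1 of the 6 comparisons (circles small subunit, triangles large subunit, filled where the adjusted p is under 0.1); black bars are subunit medians and orange bars the median of all 9003 genes, near 0. Against control, 78 (GN), 80 (EV+) and 80 (EV-) of the 81 points lie below 0, and the medians of EV+ against EV- are -0.06 and -0.04.

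A test among all 4 groups (limma's moderated F test) called *Rps7* (adjusted p = 0.0325), *Rpl24* (0.0916) and *Rpl37* (0.0946), 3 of 81 genes (3.70%) beside 2.57% of all genes. edgeR called 1, DESeq2 called 8 and limma without the intensity trend called 0. The count was 0 without either control library, 9 without EV+ replicate 1, 7 without EV+ replicate 2 and 1 without any other single library. Here too the share of all genes is that of the limma fit of all libraries with the trend only.

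The stalk of the large subunit, which recruits the translation factors, is made by *Rplp0*, *Rplp1* and *Rplp2*. *Rplp0*, its base, was at 1304 and 1462 CPM in control, 1357 and 1342 in GN, 1426, 1199 and 1329 in EV+ and 1298, 1186 and 1269 in EV-, where EV+ overlapped control and GN and all 3 EV- values lay below both. *Rplp1* was at 251 and 286 CPM in control, 213 and 235 in GN, 242, 167 and 217 in EV+ and 219.6, 201 and 221 in EV-, with both control libraries above all others. *Rplp2* was at 4.08 and 4.54 CPM in control, 3.23 and 2.52 in GN, 3.48, 2.44 and 3.12 in EV+ and 3.45, 2.09 and 3.19 in EV-, again with control on top. EV+ differed from control by -0.07 ± 0.08 (SE) in *Rplp0*, -0.38 ± 0.13 (SE) in *Rplp1* and -0.41 ± 0.24 (SE) in *Rplp2*, none of which passed the test (adjusted p = 0.766, 0.166 and 0.449, limma). Fold changes of *Rplp2* and other genes of few CPM are understated by the pseudocount of 1.

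*Rpl5* and *Rpl11* bind 5S rRNA and, when free of ribosomes, the p53 regulator MDM2. *Rpl5* was at 185 and 216 CPM in control, 188 and 189 in GN, 179.6, 152 and 182 in EV+ and 187, 169 and 181 in EV-. *Rpl11* was at 129.6 and 143 CPM in control, 117 and 132 in GN, 131, 93.6 and 111 in EV+ and 126, 111 and 115 in EV-. Control and GN overlapped in both, and EV+ differed from control by -0.23 and -0.29 (adjusted p = 0.286 and 0.278, limma). *Rpl3*, next to the catalytic center of the large subunit, was at 351 and 428 CPM in control, 369 and 399 in GN, 383, 349 and 386 in EV+ and 399, 377 and 379.7 in EV-, and its difference of -0.06 ± 0.09 (SE) was smaller than the gap between its control libraries.

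On the small subunit, *Rpsa* was at 248 and 279 CPM in control, 243 and 240.3 in GN, 251, 212 and 239 in EV+ and 243, 218 and 231 in EV-. *Rps3*, by the mRNA entry, was at 353 and 395 CPM in control, 329.7 and 347 in GN, 353, 279.7 and 332 in EV+ and 346, 302 and 318 in EV-. Their EV+ differences from control were -0.17 ± 0.09 (SE) and -0.22 ± 0.10 (SE) (adjusted p = 0.381 and 0.306, limma), and the control values overlapped those of EV+ replicate 1 in *Rpsa* but stood just above them in *Rps3*. Among the paralogs, *Rps27l*, a p53 target that resembles *Rps27*, was at 31.3 and 33.4 CPM in control, 30.3 and 36.9 in GN, 37.5, 23.4 and 32.8 in EV+ and 29.6, 26.0 and 35.5 in EV-, and its EV+ difference of -0.07 stands beside -0.63 for *Rps27*. *Rpl22l1* lay between 10.4 and 18.0 CPM, *Rps4x* between 151 and 224 CPM and *Rps4y2* between 10.3 and 21.4, with EV+ differences of -0.40, -0.20 and -0.47. None of the paralogs was called in any of the 6 comparisons by limma, but *Rps4y2* was called lower in EV+ than in control with the block on replicate number (adjusted p = 0.0995, limma).

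Ribosomal protein genes have many copies, which bears on how their reads were counted. RefSeq lists 228 symbols that the rule matches, and all 147 that are not in the table are numbered copies such as *Rps19l1*. It lists such a copy for 47 of the 81 genes and a pseudogene for 78. Levels of single genes are uncertain where reads fit a copy as well, and 10 genes averaged under 20 CPM, among them *Rps6*, *Rps19* and *Rplp2*. In EV+ against control the 34 genes without a listed numbered copy had a median of -0.31 with 33 lower and 2 called, *Rps6* and *Rpl35a*, and the 47 with one had -0.39 with 47 lower and 7 called. Only 3 of the 81 genes had neither a numbered copy nor a pseudogene listed, so this split does not set apart genes free of copies. By level, the median EV+ difference was -0.44 in the 10 genes under 20 CPM, -0.42 in 17 from 20 to 100, -0.37 in 37 from 100 to 300 and -0.23 in 17 above. The 24 genes with the pyrimidine tract at their annotated start had a median of -0.39 and the 42 without it -0.37, while 181 other genes of the table with the same tract had -0.02 (94 lower).

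Lists of other translation genes had medians nearer 0, except the ribosomal subunit genes with other symbols. Of these 4, *Fau* and *Rpl36al* were called lower in EV+ than in control by limma (log2 differences -0.46 ± 0.13 and -0.43 ± 0.12, SE; adjusted p = 0.0904 and 0.0879), and the list's median was -0.38. *Fau* was at 285 and 330.3 CPM in control, 230.3 and 250.5 in GN, 259, 177 and 241 in EV+ and 230.4, 215 and 237 in EV-, with control replicate 2 highest and EV+ replicate 2 lowest. The other mRNAs known for a TOP tract (20 of 21 in the table) had a median of -0.12 in EV+ against control with 1 called lower, *Fau*. Elongation and termination factors (11 of 11) had -0.07 with 0 called, and initiation factors (39 of 41) had -0.08 with 1 called lower, *Eif1* (-0.37 ± 0.08, SE; adjusted p = 0.0310), which helps select the start codon. In EV- against control *Eif1* was also lower (-0.33 ± 0.08, SE; adjusted p = 0.0652).

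Nucleolar ribosome biogenesis factors (75 of 86) had a median of -0.06 with none called in EV+ against control. In EV- against control *Noc2l* of that list was called higher (0.48 ± 0.13, SE; adjusted p = 0.0918). Regulators of ribosomal protein synthesis such as the mTOR complex (24 of 27) had 0.02 with none called. Mitochondrial ribosomal proteins (64 genes) had -0.08 with *Mrpl1* called lower (-0.40 ± 0.09, SE; adjusted p = 0.0255), and respiratory chain subunits (67 genes) had -0.12 with none called. In GN against control the medians of these 8 lists ran from -0.21 in the other-symbol ribosomal genes to 0.03 in the mitochondrial ribosomal proteins, and *Mrpl1* was the 1 gene called (-0.41 ± 0.09, SE; adjusted p = 0.0663, limma).

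EV+ replicate 2 was the lowest library of other lists too. The median of the respiratory chain list lay at -0.29 in that library relative to the genes' means, with 54 of 67 genes (80.6%) lowest there, and that of the mitochondrial ribosomal proteins at -0.15. Control replicate 1 stood at 0.13 in the ribosomal protein genes and 0.17 in the 4 with other symbols, beside -0.03 and -0.05 in the mitochondrial lists. EV- replicate 1, the library with the highest sum of natural killer cell markers, lay at 0.00 in the ribosomal protein genes.

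**Figure D5:**
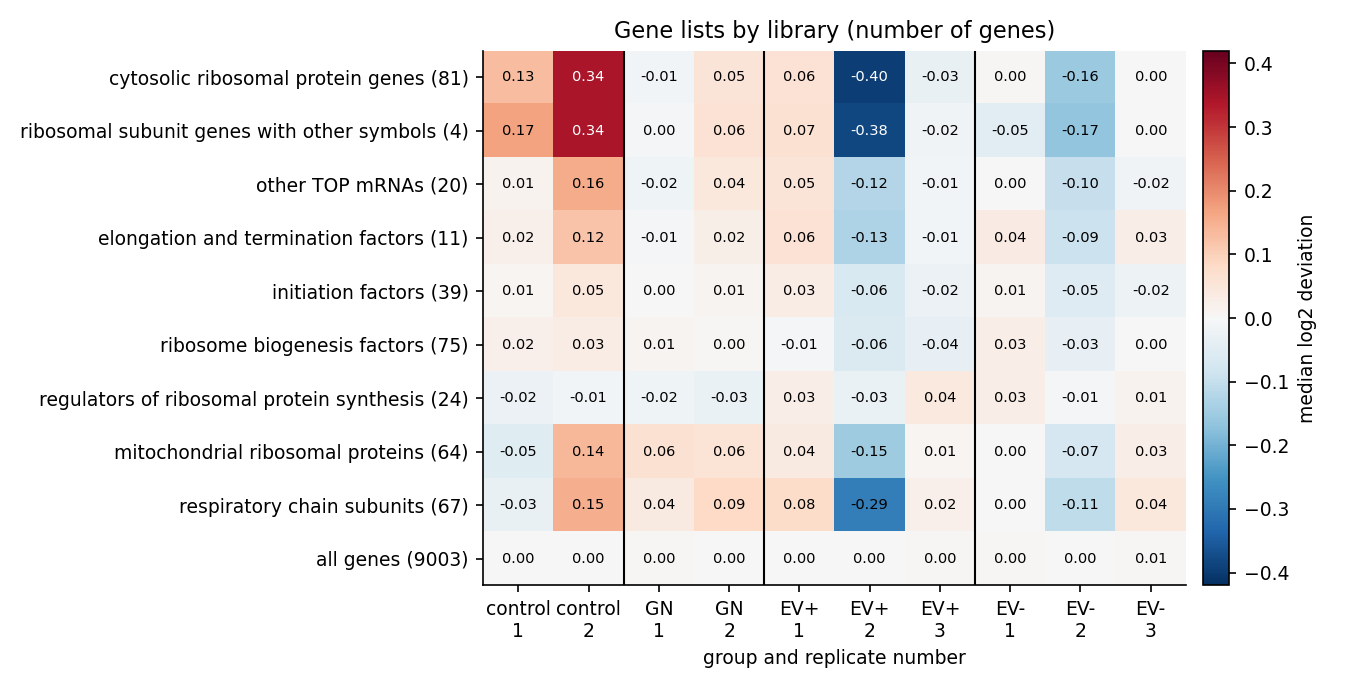
Median over the genes of each list (rows, number of genes in parentheses) of log2(CPM + 1) minus the gene's mean over 10 libraries (columns). The 81 ribosomal protein genes and the 4 with other symbols are high in both control libraries, while the respiratory chain list is at -0.03 and 0.15 there. EV+ replicate 2 holds the lowest median of every list but the regulators, where GN replicate 2 does, and not in the row of all genes.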

How the data were processed

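RNA of 10 libraries was amplified with SMART-Seq v4, made into libraries with Nextera XT and sequenced in pairs. Per the labels and the study's methods, the authors aligned reads to rn6 with STAR 2.5.3, counted them per RefSeq gene with HTSeq 0.6.0 in its strict mode, scaled them by TMM in edgeR and removed genes whose maximum was under 1 CPM. The kit does not mark strand, so overlapping antisense genes cannot be told apart. The deposited values are this signal, TMM-normalized CPM; the smallest row maximum was 1.01, and 18 symbols had turned into dates. All values (100%) were whole multiples of 1 read within 0.01 of a read, so reads were recovered (19270515 to 26617093 per library; 3 reads were 0.113 to 0.153 CPM). Unused columns of values numbered 0.

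Values were analysed as log2(CPM + 1) in limma 3.58.1 (R 4.3.3), with 4 groups, 6 residual degrees of freedom, an intensity trend and Benjamini-Hochberg adjustment over all 9003 genes, calling at 0.1. Adjusted p-values are limma's unless another tool is named. edgeR 4.0.16 (quasi-likelihood) and DESeq2 1.42.0 were run on the recovered reads. The scripts were tested on simulated data. Labels do not say whether replicates were separate animals, though the methods call them biological; p-values measure the spread between these libraries. Members and gene lists were chosen with earlier results of these data known. Named were, per comparison, up to 5 genes called in each direction with the largest difference, or else the 3 with the lowest adjusted p, with the stalk genes, Rpsa, Rps3, Rps6, Rpl5, Rpl11, Rps19, Rpl3 and all paralogs, and up to 3 called genes of each other list. Rps7, Rpl24, Rpl37 and Rpl35 in EV+ against control were added because they complete its calls.

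The labels give no batch. Same-numbered EV+ and EV- libraries deviated together from their group means over all genes (r = 0.203, 0.295 and 0.122), which the labels do not explain, and the replicate number was tried as a block. For control and GN r was 0.0878. With 2 libraries per group both same-numbered pairs must give the same value, so it cannot show whether these numbers pair. Alternatives were the pseudocount, a filter on low values, RLE and total scaling, TMM without the ribosomal protein genes, no trend, quality weights, a fit of 2 groups only, a threshold of 0.05, genes other than paralogs only, and each library left out. Leaving out EV+ and EV- replicate 2 together, scaling to the median of the ribosomal protein genes and a block within EV+ and EV- alone were chosen after seeing the data.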

Additional observations from a re-analysis of the deposited data

How the results depend on the processing

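Calls depended on the tool and its settings, the scaling, the threshold and the libraries in the fit. For genes lower in EV+ than in control, 9 became 29 with DESeq2, 23 with quality weights, 1 with no intensity trend, 1 with only the 2 groups and 5 at an adjusted p under 0.05. For EV- against control, 3 became 11 with DESeq2, 5 with quality weights, 0 with no trend, 9 with only the 2 groups, 8 without both replicates 2 and 1 at 0.05. In GN against control 0 became 3 with only the 2 groups and 5 without both replicates 2. Among the 4 groups 3 became 1 with edgeR, 8 with DESeq2, 1 with library totals, 0 with no trend, 6 without both replicates 2 and 1 at 0.05. The cause was not tested. Leaving out 1 library gave 0 to 3 calls in GN against control, 0 to 37 in EV+ against control, 0 to 29 in EV- against control and 0 to 9 among the 4 groups. Shares of all genes called are not given for any of these settings, nor for the block on replicate number.

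With the replicate number as a block, 16 genes were lower in EV+ than in control and 5 in EV-; of the 9 calls in EV+ *Rps6* was lost. The block moved no other count by over 1.5 times, and within EV+ and EV- alone it gave 0 calls.

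With 1 library left out, the median difference of EV+ from EV- ranged from -0.159 to 0.0816 (small subunit -0.183 to 0.0818, large subunit -0.133 to 0.0793), with the highest, reversed value in each without EV+ replicate 2. Without both replicates 2 it was 0.0280 (small 0.0341, large 0.0228). In EV+ against GN the small subunit median ranged from -0.242 to 0.00866, the latter without EV+ replicate 2, and was 0.00866 without both. Of 399 medians recomputed, the other 391 kept their direction, and RLE, library totals and TMM without the ribosomal protein genes reversed none. No alternative called a ribosomal protein gene higher, except scaling to the median of these genes, under which *Rps2* was (EV+ against control). Depth limits genes of few reads, such as *Rpl3l* with 27 in its poorest library, and every comparison with control rests on 2 libraries.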

Other observations

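Each library was also scaled to the median of the ribosomal protein genes, a setting chosen after seeing the data, which moves the median of all genes up by 0.36 in EV+ against control. Of the 81 genes, 1 was then called in 1 of the 6 comparisons. It was *Rps2*, higher in EV+ than in control by 0.43 ± 0.13 (SE; adjusted p = 0.0897, limma). *Rpl3* and *Rplp0* stood at 0.30 and 0.29, and *Rpl35a* and *Rps28* at -0.40 and -0.37, none of them called. The share of all genes called under this scaling was not computed.

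Of the remaining marker lists, the B cell list (7 of 10 in the table) summed to 402 to 469 CPM in control, 337 to 413 in GN, 402 to 479 in EV+ and 370 to 463 in EV-. *Bank1* of that list was called higher in EV+ and EV- than in control (adjusted p = 0.0180 and 0.0544, limma), and *Cd79b* lower in GN (adjusted p = 0.0331, limma). The dendritic cell list (5 of 7) summed to 26.7 to 32.1 CPM in control, 38.3 to 39.2 in GN, 31.1 to 38.9 in EV+ and 28.8 to 34.9 in EV-. The plasma cell list (4 of 5) summed to 4.31 to 6.35 CPM in control, 4.86 to 6.94 in GN, 2.78 to 7.66 in EV+ and 3.67 to 11.6 in EV-. The proliferation list (8 of 8) was at 11.2 CPM in both control libraries, 13.8 to 13.9 in GN, 12.4 to 13.2 in EV+ and 15.7 to 31.9 in EV-. None of the 5 platelet markers was in the table. The part of these lists in the ribosomal protein values was not tested.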
